A study of Rattus with 6 samples.

Results

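The cytosolic heat shock response was followed through 10 genes: the transcription factor Hsf1, the HSP70 genes Hspa1a, Hspa1b and Hspa8, the HSP110 gene Hsph1, the J-domain gene Dnajb1, the co-chaperone gene Bag3, the HSP90 genes Hsp90aa1 and Hsp90ab1, and the small heat shock gene Hspb1. They were taken by name from the 54012 genes of the deposited table, and each name matched 1 row; the rule is a list of names and uses no measured value, though it was drawn up with earlier results of these data known. The cells are labelled as primary cultures of vascular smooth muscle cells from aorta. All 6 cultures received angiotensin II (Ang II), a vasoconstrictor peptide hormone, with no dose or time in the labels. Of these, 3 carry a control siRNA (si-NC, genotype label WT) and 3 an siRNA against CDCP1 (si-CDCP1, genotype label CDCP1 knockdown), and the comparison asks what differs in the transcriptome after CDCP1 knockdown under Ang II. CDCP1 is a transmembrane glycoprotein that Src family kinases phosphorylate. No culture without Ang II and no heat-shocked culture was analysed here.

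Cells meet misfolded protein with a conserved set of chaperones. In resting cells HSF1 is held inactive in complexes with chaperones; when unfolded protein draws those chaperones away, HSF1 forms trimers, binds heat shock elements and drives transcription of Hspa1a, Hspa1b, Dnajb1, Hsph1, Hspb1, Bag3 and Hsp90aa1. Hspa8 and Hsp90ab1 encode the constitutive forms of HSP70 and HSP90 and are abundant without stress. J-domain proteins hand substrates to HSP70 and stimulate its ATPase, HSP110 and BAG proteins exchange its nucleotide, and small heat shock proteins hold unfolded substrates without using ATP. In vascular smooth muscle, HSPB1 is also known as an actin-associated phosphoprotein, and BAG3 as a mediator of the autophagic clearance of damaged cytoskeletal protein.

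The authors deposited FPKM, a read measure corrected for how long a gene is and how deep a library is, so that levels can be compared between genes. Reads in listed genes numbered from 16050517 to 19771638 per library. The organism label is rat while the genes and the build (mm10) are mouse, so a value near 0 need not mean that a transcript was missing. Cdcp1 stood at 0 to 5 reads per library in both groups and could not check the labels. Of 8 smooth muscle markers only Acta2 and Smtn had a mean of at least 1 FPKM, and Tagln, Cnn1 and Myh11 were at or below 0.216 FPKM in every library, so that these markers did not bear out the smooth muscle label. The si-CDCP1 replicate 3 library stood apart: its Pearson correlation with the others over log2(FPKM + 1) of 12080 genes was 0.979 to 0.983, against 0.988 to 0.991 among the other 5. The members' results are therefore given with and without it.

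Abundance spanned 3 tiers. Hsp90ab1, Hspa8 and Hsp90aa1, with means over the 6 libraries of 669.9, 387 and 252 FPKM, made up between 91.4% and 91.8% of the summed FPKM of the 10 genes in every library. Hspb1, Hsph1, Dnajb1, Hsf1 and Bag3 followed at means of 33.5, 24.7, 21.2, 18.8 and 17.6 FPKM. The inducible HSP70 genes were lowest, Hspa1b at 3.82 FPKM and Hspa1a at 0.303 FPKM. Neighbours within the middle tier had overlapping ranges over the 6 libraries, although Hspb1 lay above Hsph1, and Hsph1 above Dnajb1, in 6 of 6, while the gaps from Hsp90aa1 to Hspb1 and from Bag3 to Hspa1b did not close in any library. In 5 of 6 libraries Hspa8 lay above Hsp90aa1 and Dnajb1 above both Hsf1 and Bag3; in si-CDCP1 replicate 3 each of these orders was turned around.

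**Figure D1:**
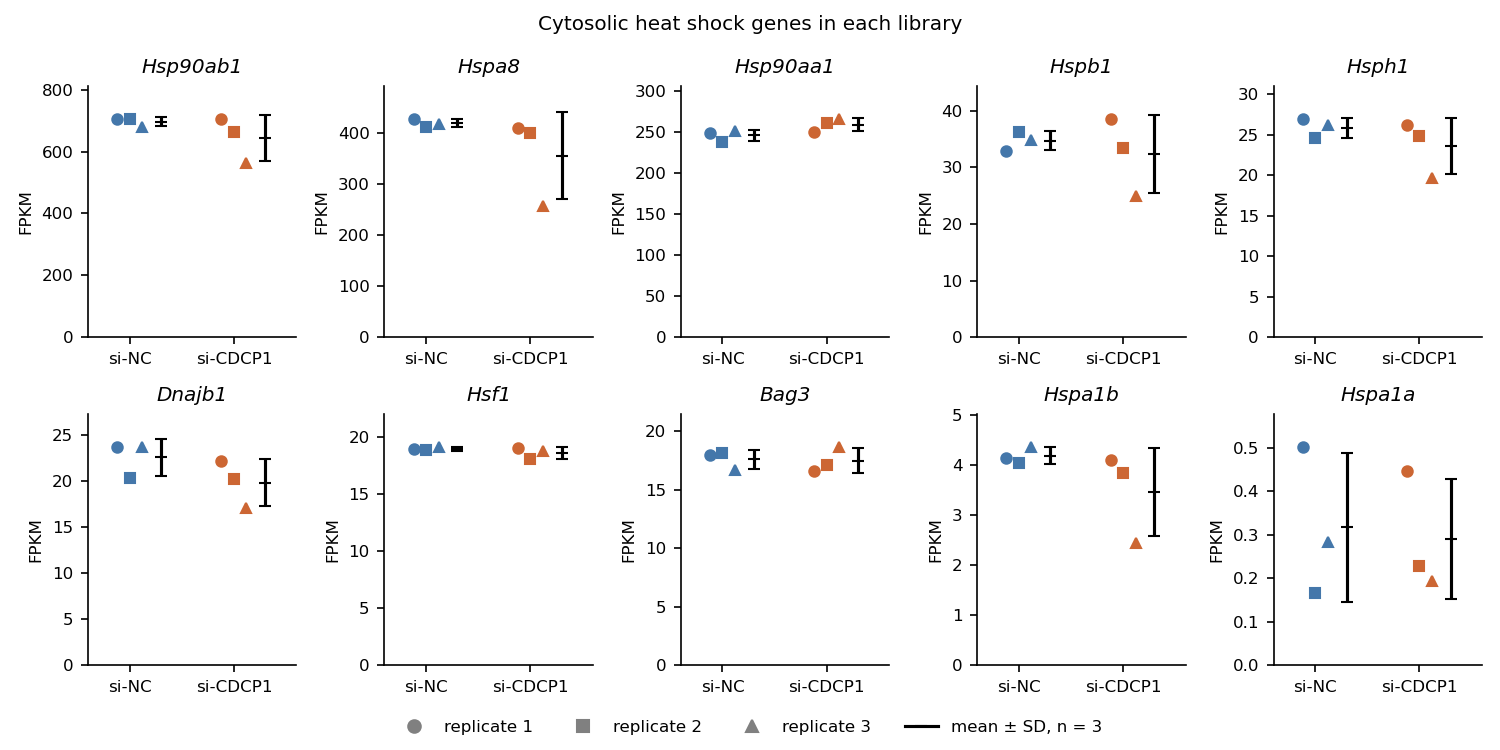
FPKM of the 10 heat shock genes (vertical axes, each starting at 0) in the si-NC and si-CDCP1 libraries; symbols mark the replicate and black bars the mean ± SD of 3 libraries. The triangle of si-CDCP1 replicate 3 is the lowest point for Hsp90ab1, Hspa8, Hspb1, Hsph1, Dnajb1 and Hspa1b, and the highest for Hsp90aa1 and Bag3.

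None of the 10 genes differed between si-CDCP1 and si-NC beyond the spread between libraries. In limma's moderated test on log2(FPKM + 1), 9 members had the mean of at least 1 FPKM needed to be tested (all but Hspa1a), and 0 of the 9 passed a Benjamini-Hochberg (BH) adjusted p of 0.05, against 0% of all 12080 genes tested. At an unadjusted p under 0.05 there were again 0 of 9 members, against 14.3% of all genes. The unadjusted counts over all genes were 1080 higher and 642 lower, and 537 higher and 1301 lower once the FPKM of each library were rescaled to a common sum. Limma voom on reads recovered from the FPKM, an alternative chosen after seeing the data, called 0 of 10 members and 5 of 14365 genes (0.0348%), 0 of them higher. Of the 9 log2 differences 8 were below 0, with a median of -0.12, where 47.7% of all genes were below 0 and the median over all genes was 0.01. Without si-CDCP1 replicate 3 the members' median was -0.03, with 7 of 9 below 0. Whether replicates are separate animals or isolations is not stated in the labels, so the p-values speak only for variation among these 6 cultures, part of which may be technical.

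**Figure D2:**
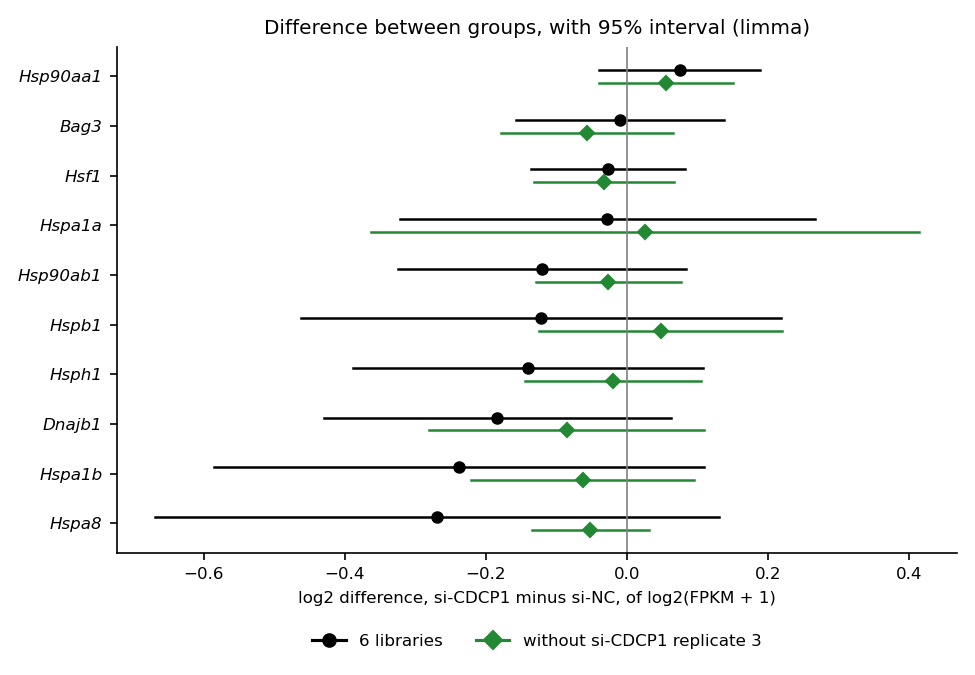
Log2 difference, si-CDCP1 minus si-NC, of log2(FPKM + 1) for each gene with its 95% interval from limma, over 6 libraries (black circles) and without si-CDCP1 replicate 3 (green diamonds). Every interval includes 0, and all but that of Hspa1a narrow when that library is left out. Hspa1a comes from the fit without a filter on low values.

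Hsf1 encodes the master regulator of the response (ENSMUSG00000022556, protein coding as are all 10; mm10 chromosome 15, 76477422 to 76501913, plus strand). It measured 18.9, 18.9 and 19.2 FPKM in si-NC replicates 1, 2 and 3, and 19.05, 18.03 and 18.8 FPKM in si-CDCP1 replicates 1, 2 and 3. All 6 libraries thus lay close together and the groups overlapped. The log2 difference was -0.03 (SE 0.046, 95% interval -0.14 to 0.08; limma BH-adjusted p = 0.805), and it was also -0.03 without si-CDCP1 replicate 3.

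Hspa8, the constitutive HSP70 that folds new polypeptides and uncoats clathrin vesicles (ENSMUSG00000015656; chromosome 9, 40800984 to 40810087, plus strand), stood at 428, 411 and 418 FPKM in si-NC against 409, 399 and 257 FPKM in si-CDCP1. Every si-CDCP1 library lay below every si-NC library, but replicates 1 and 2 by a small margin and replicate 3 by a wide one. Hspa8 was the only 1 of 9 members whose groups did not overlap, a pattern shown in the lower direction by 10.6% of all genes tested. The log2 difference was -0.27 (SE 0.17, 95% interval -0.67 to 0.13; limma BH-adjusted p = 0.472), and without si-CDCP1 replicate 3 it was -0.05 (SE 0.034, interval -0.13 to 0.03; adjusted p = 0.497). In bulk RNA, fewer cells of a type and less RNA per cell cannot be told apart.

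Hspa1b and Hspa1a, the stress-inducible HSP70 genes, lie 9951 bases apart on the minus strand of chromosome 17 (Hspa1b, ENSMUSG00000090877, 34956436 to 34959238; Hspa1a, ENSMUSG00000091971, 34969190 to 34972156). Their products are nearly identical, and how the authors' counting treated reads that match both is not given in the sources used here, so the split between them is uncertain. Hspa1b measured 4.14, 4.05 and 4.37 FPKM in si-NC against 4.10, 3.83 and 2.45 FPKM in si-CDCP1. Here too replicate 3 was low while replicates 1 and 2 were at or just below the si-NC range. The log2 difference was -0.24 (SE 0.15, 95% interval -0.59 to 0.11; limma BH-adjusted p = 0.465), and -0.06 (interval -0.22 to 0.10) without replicate 3.

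Hspa1a rested on few reads, 30, 8 and 15 in si-NC and 23, 11 and 9 in si-CDCP1. These stand for 0.503, 0.165 and 0.283 FPKM and for 0.448, 0.227 and 0.194 FPKM, with replicate 1 highest in both groups and the groups overlapping. As a share of library totals, si-CDCP1 reads were 0.895 times si-NC reads (exact binomial 95% interval 0.584 to 1.36, counting error only). The sum of both genes depends less on how reads were split between them than either value does, although reads left uncounted as ambiguous would lower it. That sum was 4.64, 4.21 and 4.65 FPKM in si-NC against 4.55, 4.06 and 2.64 FPKM in si-CDCP1, and its two-sided exact permutation p was 0.2 (the smallest possible with 3 against 3 is 0.1). The difference of the group means was -0.75 FPKM, -0.20 FPKM without si-CDCP1 replicate 3 (exact permutation p = 0.5) and -1.15 FPKM without si-CDCP1 replicate 1 (p = 0.1, the smallest possible). The log2 difference of Hspa1a itself was -0.03, and 0.03 without si-CDCP1 replicate 3, in fits without the filter on low values.

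Hspa1b, and the sum of Hspa1b and Hspa1a, stood in nearly the same proportion to Hspa8 in all 6 libraries. Hspa1a alone did not: Hspa1b was 8.22 to 24.5 times Hspa1a, which rested on 8 to 30 reads per library. Hspa1a and Hspa1b together were 1.07%, 1.01% and 1.10% of cytosolic HSP70 FPKM (these and Hspa8) in si-NC and 1.10%, 1.01% and 1.02% in si-CDCP1. The ratio of Hspa8 to Hspa1b ranged from 95.7 to 105 over the 6 libraries. In si-CDCP1 replicate 3, where the level of each was lowest, the ratio of 105 was the highest of the 6 by a small margin.

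The partners of HSP70 split into genes that were low in si-CDCP1 replicate 3 and genes that were not. Hsph1, the HSP110 nucleotide exchange factor (ENSMUSG00000029657; chromosome 5, 149614287 to 149636376, minus strand), measured 26.9, 24.5 and 26.1 FPKM in si-NC against 26.1, 24.9 and 19.6 FPKM in si-CDCP1. Dnajb1, the J-domain partner of inducible HSP70 (ENSMUSG00000005483; chromosome 8, 83608193 to 83612653, plus strand), measured 23.7, 20.3 and 23.6 FPKM in si-NC against 22.1, 20.2 and 17.1 FPKM in si-CDCP1. For both genes the first 2 si-CDCP1 libraries lay within or next to the si-NC range and replicate 3 lay below it.

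Their log2 differences were -0.14 for Hsph1 (SE 0.10, 95% interval -0.39 to 0.11) and -0.18 for Dnajb1 (SE 0.10, interval -0.43 to 0.06), with limma BH-adjusted p-values of 0.539 and 0.435. Without si-CDCP1 replicate 3 they were -0.02 and -0.09. Bag3, the HSP70 co-chaperone of selective autophagy (ENSMUSG00000030847; chromosome 7, 128523616 to 128546981, plus strand), measured 18.01, 18.1 and 16.7 FPKM in si-NC against 16.6, 17.1 and 18.7 FPKM in si-CDCP1. Its groups overlapped fully and replicate 3 was the highest library. The log2 difference of Bag3 was -0.01 (SE 0.063, interval -0.16 to 0.14; adjusted p = 0.956), and -0.06 without si-CDCP1 replicate 3.

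The cytosolic HSP90 paralogs, which mature kinases and steroid receptors and bind HSF1, had log2 differences of opposite sign. Constitutive Hsp90ab1 (ENSMUSG00000023944; chromosome 17, 45567775 to 45573271, minus strand) measured 706, 704 and 679 FPKM in si-NC against 706, 662 and 562 FPKM in si-CDCP1. Inducible Hsp90aa1 (ENSMUSG00000021270; chromosome 12, 110690605 to 110702728, minus strand) measured 249, 238 and 251 FPKM in si-NC against 250.1, 261 and 266 FPKM in si-CDCP1. Replicate 3 was thus the lowest library for Hsp90ab1 and the highest for Hsp90aa1, and the groups overlapped for both. The log2 differences were -0.12 for Hsp90ab1 (SE 0.086, 95% interval -0.32 to 0.08) and 0.08 for Hsp90aa1 (SE 0.048, interval -0.04 to 0.19), with limma BH-adjusted p-values of 0.520 and 0.480. Without si-CDCP1 replicate 3 that of Hsp90ab1 was -0.03 and that of Hsp90aa1 0.06.

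The share of Hsp90aa1 in the FPKM of both HSP90 genes was 26.0%, 25.2% and 27.0% in si-NC and 26.2%, 28.2% and 32.1% in si-CDCP1. It was higher in si-CDCP1 replicate 3 than in any other library, and si-CDCP1 replicate 1 lay within the si-NC range. Cytosolic HSP90 FPKM was 2.20 to 2.31 times cytosolic HSP70 FPKM in 5 libraries and 3.19 times in si-CDCP1 replicate 3.

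Hspb1, the small heat shock protein known in rodents as HSP25 (ENSMUSG00000004951; chromosome 5, 135887919 to 135889563, plus strand), measured 32.9, 36.3 and 34.9 FPKM in si-NC against 38.5, 33.4 and 24.9 FPKM in si-CDCP1. The highest and the lowest of its 6 values were both si-CDCP1 libraries. The log2 difference was -0.12 (SE 0.14, 95% interval -0.46 to 0.22; limma BH-adjusted p = 0.704) and changed sign to 0.05 without replicate 3.

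The pattern in si-CDCP1 replicate 3 was shared by 6 of the 9 tested members: Hspa1b, Hspa8, Hsph1, Hsp90ab1, Hspb1 and Dnajb1 lay below every other library, as did 30.0% of all genes tested. Of these, Hspa1b, Hspa8, Hsph1 and Hspb1 (4 of 9) lay more than 1.2-fold below every other library, against 8.22% of all genes. That limit was set after the values had been seen, and the count moves with it: at 1.3-fold, Hspa1b, Hspa8 and Hspb1 remained (3 of 9, against 4.25% of all genes). Hsph1 lay 1.25-fold below the lowest of the other libraries, just inside the 1.2-fold limit, and Dnajb1 and Hsp90ab1, each 1.18-fold below, just outside it. This is a description of 1 library, with no test. Relative to the mean of the other 5 libraries, Hspa1b stood at 0.597, Hspa8 at 0.622, Hspb1 at 0.708, Hsph1 at 0.763, Dnajb1 at 0.776 and Hsp90ab1 at 0.812. Hsf1 stood at its level elsewhere, within the range of the other libraries, and Hsp90aa1 and Bag3 lay above all others at 1.07 and 1.08 times their mean, as 34.0% of all genes did. After rescaling to a common FPKM sum, the same 6 genes remained below every other library, while Hsp90aa1 and Bag3 lay within the range of the others.

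For each member that lay below every other library in si-CDCP1 replicate 3, the counting interval there lay below that of the next lowest library. These members were picked because they were lowest in that library, so the comparison is no test of the pattern. The intervals also leave out the variation between cultures, and the share of all genes with separate intervals is not given here. For Hspa8, 17244 reads in si-CDCP1 replicate 3 gave an exact Poisson 95% interval of 253 to 261 FPKM, and the next lowest library, si-CDCP1 replicate 2, one of 394 to 404 FPKM. For Hspa1b, 107 reads gave 2.005 to 2.96 FPKM against 3.28 to 4.44 FPKM in replicate 2. For Dnajb1 the intervals were 15.9 to 18.2 FPKM and 19.0 to 21.4 FPKM. In the same library Acta2, smooth muscle actin, stood at 64.2 FPKM against 34.4 to 42.0 FPKM in the other 5. The 8 smooth muscle markers summed to 75.9 FPKM there, against 46.0 to 50.4 FPKM in si-NC and 52.5 and 44.6 FPKM in si-CDCP1 replicates 1 and 2. Acta2 made up most of that sum, and the markers did not move together. Smtn (10.3 against 8.02 to 8.58 FPKM), Myocd (0.439 against 0.124 to 0.234 FPKM) and Myh11 (0.0592 FPKM against at most 0.0381 FPKM) also lay above every other library there. Tagln (0.0322 against 0.125 to 0.216 FPKM), Des (0.341 against 0.703 to 1.09 FPKM) and Lmod1 (0.503 against 0.793 to 1.23 FPKM) lay below every other library, and Cnn1 within their range. The 4 fibroblast markers summed to 277 to 309.9 FPKM in si-NC and 274 to 308 FPKM in si-CDCP1, nearly all of it Col1a1, a collagen gene, and 3 of the 4 had a mean of at least 1 FPKM. The sums of the 4 endothelial, 4 macrophage and 4 epithelial markers were at most 1.33 FPKM in every library, with Cdh5, Adgre1 and Krt18 at 0 throughout. The fibroblast marker Pdgfra (7.59 to 9.49 FPKM against 9.97 to 10.6 FPKM in si-NC) was lower in every si-CDCP1 library. So was the macrophage marker Cd68 (0.714 to 0.879 against 1.22 to 1.31 FPKM). Of all genes 10.6% had this pattern, and neither marker passed unweighted limma over 6 libraries (BH-adjusted p = 0.316 and 0.298). The groups overlapped for the other markers with a mean of at least 1 FPKM. The part of these differences in the heat shock values was not tested.

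Among genes outside the set, the 5 whose centred log2(FPKM + 1) profile over the 6 libraries lay nearest to that of Hspa1b were Hpcal1, Tk1, Twf2, Tmem231 and Cenps. Their root mean square distances were 0.027, 0.028, 0.030, 0.033 and 0.033 log2 units, against 0.054 for Hspa8, 0.082 for Hsph1, 0.086 for Hspb1, 0.10 for Dnajb1, 0.11 for Hsp90ab1, 0.21 for Hsf1, 0.25 for Hsp90aa1 and 0.26 for Bag3. Hspa8 was the nearest member, and 22 genes, Hspa1b itself included, were nearer. All 5 named genes lay below every other library in si-CDCP1 replicate 3, which follows from choosing them by likeness to Hspa1b; Tk1, thymidine kinase, for example, was at 6.87 FPKM against 10.2 to 11.7 FPKM.

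The wider cytosolic chaperone system was covered by 54 further genes, of which 49 were tested. Of these, 0 passed the BH-adjusted threshold in unweighted limma over 6 libraries. At an unadjusted p under 0.05 there were 7 higher and 1 lower (8.94% and 5.31% of all genes). The 1 lower was the heat shock factor gene Hsf4, named after its values were seen. It measured 7.10, 7.56 and 7.66 FPKM in si-NC against 6.43, 6.37 and 5.81 FPKM in si-CDCP1. Its log2 difference was -0.23 (limma BH-adjusted p = 0.269), and -0.19 without si-CDCP1 replicate 3 (limma BH-adjusted p = 0.182). Without si-CDCP1 replicate 3, voom called Fkbp4, Cct6a and Cct8 higher and 0 lower among 51 of the 54, where it called 2.36% of all genes higher and 1.04% lower, and it called 0 of the 10 members. Limma without the same library called 0 of 12080 genes (2002 at an unadjusted p under 0.05). With limma's library weights over 6 libraries, Fkbp4, Cct6a, Cct8 and Hspa14 passed as higher and Hsf4 as lower. That fit called 558 of 12080 genes higher and 307 lower, and gave si-CDCP1 replicate 3 a weight of 0.165. The median log2 difference of the 49 was 0.05, with 34 above 0, where the median over all genes was 0.01. With equal FPKM sums the median of the 49 was 0.00, with 25 above 0, and the median over all genes also moved, to -0.04. In si-CDCP1 replicate 3, 11 of the 49 lay below and 20 above every other library, against 30.0% and 34.0% of all genes. Of the 49, 2 lay more than 1.2-fold below, against 8.22% of all genes, and 1 lay more than 1.2-fold above. The 2 below were the HSP70 gene Hspa2, at 3.05 FPKM against 5.06 to 6.17 FPKM, and the exchange factor gene Hspbp1, at 12.3 FPKM against 15.1 to 16.6 FPKM. Both were named after their values were seen.

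**Figure D3:**
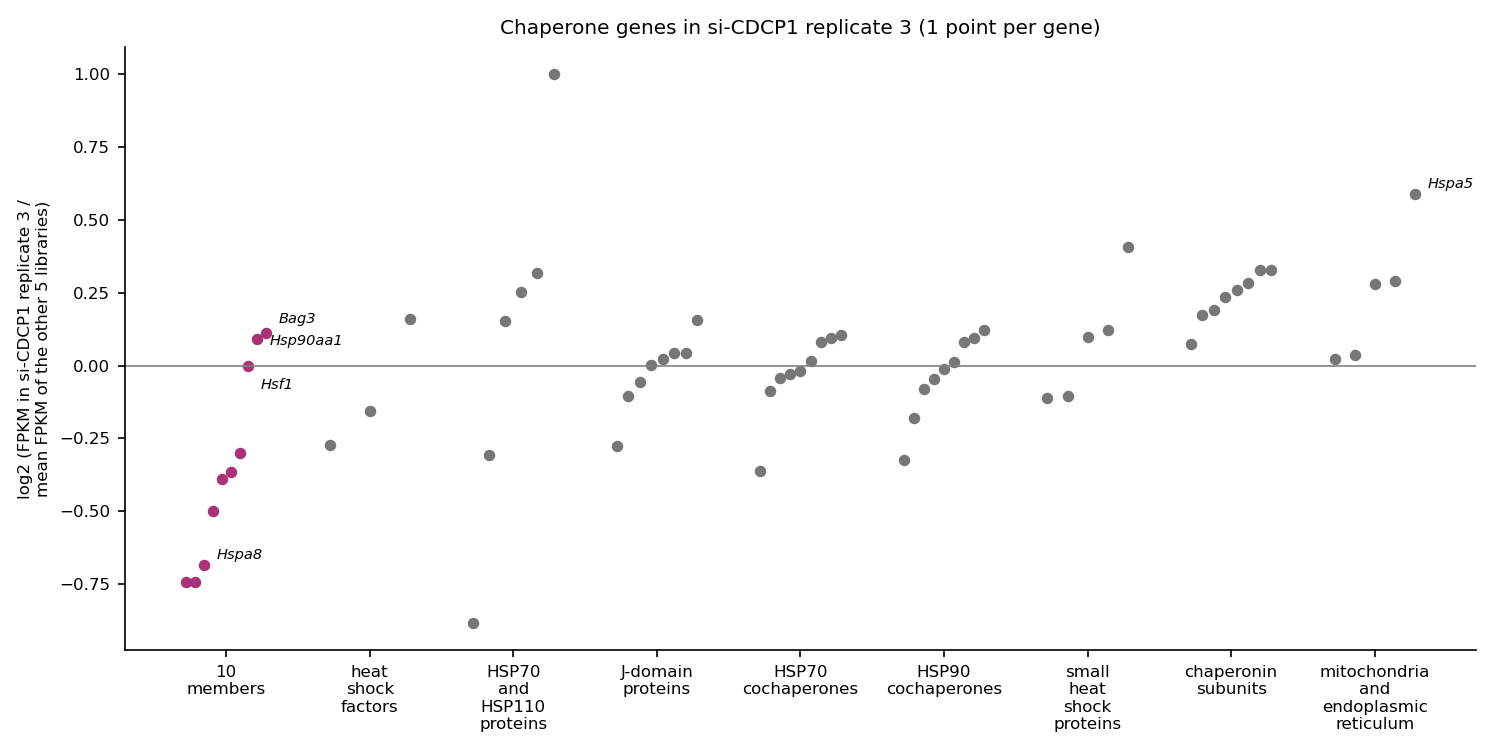
Log2 ratio of FPKM in si-CDCP1 replicate 3 to the mean of the other 5 libraries, 1 point per gene. The 10 members are purple. Tested genes of the wider chaperone system, except Serpinh1, and of other compartments are grey. Of the members 7 lie well below 0, while all 8 chaperonin subunits lie above 0, and Hspa5 stands highest among the mitochondrial and endoplasmic reticulum genes.

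The co-chaperones of HSP70 and HSP90 named here did not pass the threshold in unweighted limma over 6 libraries. Stip1, which bridges HSP70 and HSP90, measured 185 ± 1.74 FPKM under si-NC against 188 ± 4.02 FPKM under si-CDCP1 (mean ± SD, n = 3 per group), and Ahsa1, the HSP90 ATPase activator, 21.2 ± 1.51 and 21.3 ± 0.860 FPKM. Stub1, the ubiquitin ligase CHIP, measured 43.3 ± 3.14 and 46.5 ± 1.57 FPKM, and the J-domain gene Dnaja1 27.1 ± 0.548 and 26.1 ± 3.00 FPKM. Like 6 of the members, Dnaja1 was below every other library in si-CDCP1 replicate 3, at 22.7 FPKM against 26.5 to 28.1 FPKM. Fkbp4, an HSP90-bound immunophilin, was at 140.0, 141 and 142 FPKM in si-NC against 161, 158 and 140.5 FPKM in si-CDCP1, so that here replicate 3 was the si-CDCP1 library nearest to si-NC. Its log2 difference was 0.11 (SE 0.061, limma BH-adjusted p = 0.414), and 0.18 without replicate 3, where voom called it (BH-adjusted p = 0.00803) and limma did not (BH-adjusted p = 0.0884). With limma's library weights over 6 libraries, Fkbp4 passed at a log2 difference of 0.16 (BH-adjusted p = 0.0321). Chordc1, an HSP90 co-chaperone, measured 11.6 ± 0.806 and 12.2 ± 0.518 FPKM.

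Relatives of the members had other patterns. Hspa4, an HSP110 gene like Hsph1, measured 94.4, 93.0 and 95.9 FPKM in si-NC against 97.4, 102 and 115 FPKM in si-CDCP1, with replicate 3 highest where Hsph1 was lowest. Hspa4l, the third HSP110 gene, lay near the filter at 0.711 ± 0.206 and 1.41 ± 0.746 FPKM (SD, n = 3 each). Hsf2, the second heat shock factor, measured 5.99 ± 0.0348 and 6.14 ± 0.480 FPKM. The small heat shock genes Hspb8, the partner of BAG3, and Cryab were at 63.4 ± 2.88 against 63.0 ± 3.47 FPKM and 23.5 ± 0.714 against 22.1 ± 2.54 FPKM. Serpinh1, the collagen chaperone HSP47 and a target of HSF1, measured 534 ± 4.96 and 561 ± 6.84 FPKM. None of these 6 genes passed the limma threshold, with BH-adjusted p-values from 0.371 (Hspa4) to 0.952 (Hspb8). Without si-CDCP1 replicate 3 none of the 6 passed either, with log2 differences of 0.08 for Hspa4, 0.30 for Hspa4l, -0.02 for Hsf2, 0.03 for Hspb8, -0.15 for Cryab and 0.08 for Serpinh1.

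The chaperonin CCT, which folds actin and tubulin, was a group of the list in which every subunit had a log2 difference above 0, 8 of 8 with a median of 0.18; with equal FPKM sums it was 7 of 8, and without si-CDCP1 replicate 3 all 8 with a median of 0.10. Over all tested genes, 6314 of 12080 were above 0 in the main fit. None of the 8 passed the adjusted threshold in unweighted limma over 6 libraries. Of the 8, 4 were higher at an unadjusted p under 0.05, against 8.94% of all genes. For 7 of the 8 the groups did not overlap, with si-CDCP1 higher, against 14.4% of all genes. Cct6a and Cct8 passed with limma's library weights, and in voom without si-CDCP1 replicate 3. Cct2 measured 175, 172 and 173 FPKM in si-NC against 187, 185 and 218 FPKM in si-CDCP1, with no overlap of the groups and replicate 3 again farthest from si-NC.

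Chaperones of other compartments did not share the low values of cytosolic Hspa8 and Hspa1b in si-CDCP1 replicate 3. The HSP70 genes of the cytosolic list were themselves mixed there: Hspa2 lay below every other library, and Hspa14, at 22.8 FPKM against 19.4 to 22.6 FPKM, above. Hspa5 (BiP), the HSP70 of the endoplasmic reticulum, measured 545, 537 and 544 FPKM in si-NC against 579.6, 614 and 848 FPKM in si-CDCP1. Hspa9, mitochondrial HSP70, had a mean of 412 ± 2.77 FPKM under si-NC against 461 ± 43.7 FPKM under si-CDCP1 (SD, n = 3 per group), and was at 512 FPKM in replicate 3. Both genes were higher in every si-CDCP1 library than in any si-NC library, a pattern of 14.4% of all genes.

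The ratio of Hspa5 to Hspa8 was 1.27, 1.31 and 1.30 in si-NC and 1.42, 1.54 and 3.30 in si-CDCP1. All 3 si-CDCP1 ratios lay above the si-NC ratios, replicates 1 and 2 narrowly and replicate 3 by far. The chaperonin pair of mitochondria, Hspd1 and Hspe1, averaged 239.7 ± 3.81 against 287 ± 21.9 FPKM and 91.2 ± 2.39 against 104.6 ± 5.03 FPKM, and Hsp90b1, the HSP90 of the endoplasmic reticulum, 306 ± 9.84 against 321 ± 6.96 FPKM. None of these 5 genes passed the unweighted limma test over 6 libraries (BH-adjusted p from 0.267 to 0.498). With limma's library weights, Hspd1 and Hspe1 passed (BH-adjusted p = 0.0198 and 0.0186). Without si-CDCP1 replicate 3, voom called Hspd1, Hspe1 and Hspa5 higher (BH-adjusted p = 0.00393, 0.00747 and 0.00943), with log2 differences of 0.20, 0.24 and 0.14, while limma without the same library called none of these 3 (BH-adjusted p = 0.102, 0.0795 and 0.170).

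**Figure D4:**
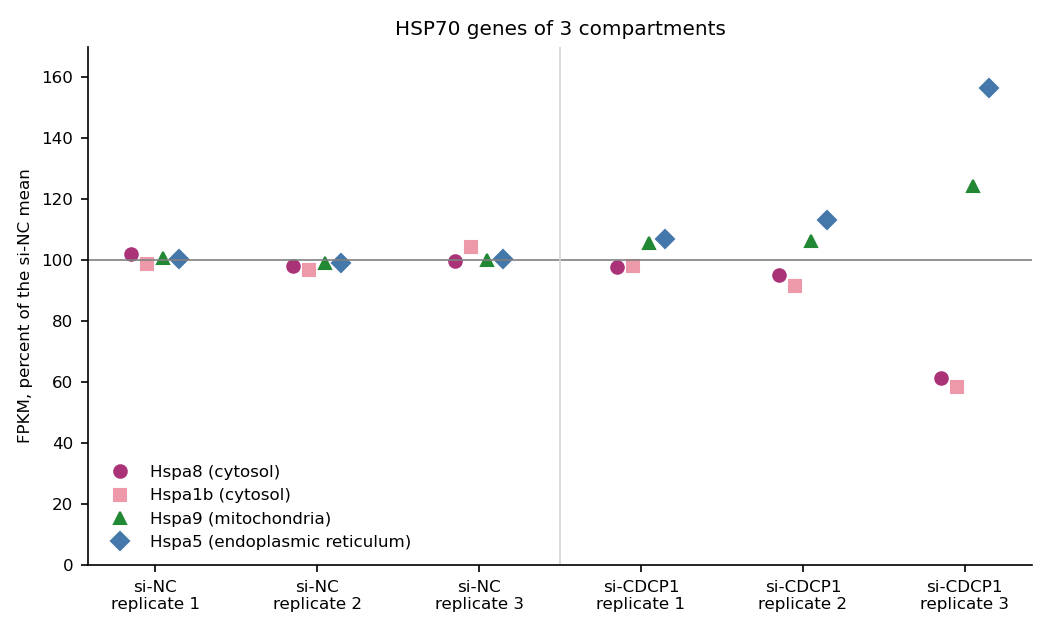
FPKM of 4 HSP70 genes in each library as a percentage of the gene's mean in si-NC (vertical axis from 0; grey line at 100). In si-CDCP1 replicate 3 the cytosolic Hspa8 and Hspa1b stand at 61.3% and 58.5%, mitochondrial Hspa9 at 124% and Hspa5 of the endoplasmic reticulum at 156%; in the other 5 libraries the 4 genes lie between 91.5% and 113%.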

How the data were processed

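Libraries of polyadenylated RNA from 6 cultures (3 si-NC, 3 si-CDCP1) were used as 1 table of FPKM, which the authors deposited per the file headers with a gene length and mouse Ensembl identifiers on mm10 (submitters' processing notes). The sources used here do not name an aligner, a counter or a strand setting. FPKM times gene length was a whole multiple of 1 step in every library (100% of values within 0.01 of a whole read), which gave the recovered reads and library totals scaled between libraries by a median ratio. Log2(FPKM + 1) was tested for 12080 genes whose mean reached 1 FPKM with limma 3.58.1 (R 4.3.3; intensity trend, two-sided, BH over all tested genes, threshold 0.05); Hspa1a and Cdcp1 come from the fit without this filter. Intervals are 95%: those of log2 differences come from limma and the spread between libraries, and the Poisson and binomial ones cover counting error only. The scripts were tested on simulated data. Members, lists and tests were chosen with earlier results of these data known. Named genes are all members, a fixed part of the chaperone list, 5 chaperones of other compartments, Cdcp1 and the 5 profiles nearest to Hspa1b. Other chaperone genes were named because they passed a threshold or after their values were seen. Samples were treated as unpaired, since the replicate numbers carry no stated pairing. Deviations from group means of same-numbered libraries correlated at -0.020, 0.026 and 0.022. Those of other-numbered libraries spanned -0.047 to 0.033, so these values cannot decide whether cultures were paired. No replicates were duplicates (chi-square per degree of freedom at least 2.98). Alternatives were another pseudocount, no filter, equal FPKM sums, a replicate block, library weights and each library left out. The 1.2-fold limit used to describe si-CDCP1 replicate 3 replaced a slightly higher one after the values had been seen, for a reporting reason, and 1.3-fold was then added. Voom on these reads (a minimum of 10 in 3 libraries) was added after the data had been seen, in place of 2 planned count tests that were not run because the deposited unit is not counts.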

Additional observations from a re-analysis of the deposited data

How the results depend on the processing

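Over 13 alternatives to the main limma fit, 0 of the 10 members passed the adjusted threshold, and 120 of 130 member results kept their direction; the 10 that changed sign belong to Hspa1a, Bag3 and Hspb1. The count of genes passing went from 0 to 7 with no filter, 1 with equal FPKM sums, 1 with the replicate block, 865 with library weights (5 in the chaperone list, and Hspd1 and Hspe1), 5 in voom and 486 in voom without si-CDCP1 replicate 3 (3 in the chaperone list), and was 0 or 1 with each library left out. The cause was not tested. The replicate block changed no call on a member, and gave a p of 0.25 for the sum of Hspa1a and Hspa1b, the smallest it allows.

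Log2 differences over fits leaving out 1 library ranged from -0.11 to 0.072 for Hspa1a, -0.056 to 0.024 for Bag3, -0.257 to 0.048 for Hspb1, -0.020 to 0.076 for Hsf2, -0.111 to 0.037 for Dnaja1, -0.052 to 0.036 for Ahsa1, -0.045 to 0.033 for Hspb8, -0.150 to 0.0049 for Cryab and -0.020 to 0.012 for Cdcp1. In voom without si-CDCP1 replicate 3, Hspa1a was at 0.12, Hspb1 at 0.056, Hsf2 at -0.025, Dnaja1 at 0.038 and Hspb8 at 0.032. Further changes of sign were Hsf2 (-0.017), Stip1 (-0.032) and Ahsa1 (-0.046) with equal FPKM sums, Dnaja1 (0.035), Hspa4l (-0.032) and Hspb8 (0.0048) with library weights, and Cdcp1 (-0.0045) with a pseudocount of 0.1 FPKM. Hspa1a, at 8 to 30 reads per library, is the member whose depth limits its precision most.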
